A study of Oryzias latipes with 27 samples.

Results

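The MT_Fe_Ov gonad is the ovary of XY medaka (Oryzias latipes) whose DMY gene was disrupted with TALEN, a nuclease built to cut a chosen sequence. DMY is the Y-linked gene that starts male development in medaka, and these XY fish develop as females. Small RNA of this ovary at 120 days post hatch (D120, 3 libraries) was compared with that at 30 days post hatch (D30, 3 libraries), 6 of the 27 libraries of the series, over all 437 mature miRNAs of the count table. The same comparison in the ovary of wild-type XX females (WT_Fe_Ov, 6 libraries) and the testis of wild-type XY males (WT_Ma_Te, 6 libraries) is used here only to show where the XY ovary differed. The mutant is 1 stable line, all fish were kept at the same temperature and light cycle, and the labels name the samples gonads of DMY knockout males. Levels in the same mutant at 10 days post hatch (D10, 3 libraries) are also given, and all 27 libraries entered the fit. How many fish were pooled in a library is not given in the sources used here. Replicates are labelled biological, so p-values measure the spread between replicate libraries, estimated jointly over all 27 rather than from the 6 compared alone. DMY is protein coding and was not analysed here, so no targeted gene could be checked in these libraries.

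A miRNA is a short RNA that guides the silencing of mRNAs with sites matching its seed, the bases near its 5′ end. It is cut from a hairpin that gives a 5p and a 3p arm, and the arm that is kept can differ between tissues. Many miRNAs mark a cell type. In vertebrates miR-142, miR-146a and miR-223 are miRNAs of leukocytes, miR-451 and miR-144 of red blood cells, miR-143 and miR-145 of smooth muscle, miR-126 of blood vessel endothelium and miR-202 of the gonad. Between both ages the medaka ovary grows from a small organ of early oocytes to one with vitellogenic follicles. In a bulk sample, fewer cells of a type and less RNA per cell cannot be told apart.

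Mature miRNA sequences were not used here. The study designed qPCR primers for 6 of the miRNAs described below, and these are shown because they state which molecule each name stands for. The forward primer reads in the sense of the miRNA and may carry added bases at its 5′ end.
miR-146a-5p: cgcgtgagaactgaattccat
miR-30e-2-3p: cgcgctttcagtcggatgt
miR-10b-5p: cgcgtaccctgtagaaccga
miR-7-5p: cgcgtggaagactagtgatttt
miR-99a-5p: gcgaacccgtagatccgat
miR-214-3p: cgcgtacagcaggcacagac
The reverse transcription primers end in 6 bases that pair with the 3′ end of the miRNA. Written as DNA in the sense of the miRNA, these were AGATGG for miR-146a-5p, TTGCAG for miR-30e-2-3p, ATTTGT for miR-10b-5p, GTTGTG for miR-7-5p, CTTGTG for miR-99a-5p and AGGCAG for miR-214-3p.

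The paper's mapping summary gives each D30 MT_Fe_Ov library a far smaller share of reads mapped to miRNAs than any D120 one. Levels scaled to miRNA reads, as used below, do not show this, and its cause was not tested. The D30 libraries were thus poor in miRNA reads. They held 54535 to 351194 miRNA counts, with counts for at most 246 miRNAs, against 1352578 to 2585608 counts and at least 376 miRNAs at D120. The floor taken for a count of 0 was 3 counts, which is 30.5 RPM (reads per 1000000 miRNA reads) on average over the D30 libraries and 1.76 RPM at D120, for counting error only. Pearson's r between replicates across miRNAs, on log2(RPM + 1), was 0.848 to 0.886 at D30, 0.985 to 0.989 at D120 and 0.751 to 0.773 between the stages. The D30 libraries also differed in markers of other tissues, with the highest sums of neural and sensory miRNAs in replicate 3, of liver miRNAs in replicate 2 and of gut and muscle miRNAs in replicate 1. Values without single libraries are given beside the results.

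The XY ovary at D120 had other leading miRNAs than at D30. miRNAs that passed edgeR's quasi-likelihood test at an adjusted p of 0.05 and moved by 1 or more on the log2 scale are called differentially expressed (DEMs). Of the 399 miRNAs with enough counts to be tested, 212 were DEMs (53.1%), of which 71 were lower at D120 (17.8%) and the others higher (35.3%). An unadjusted p under 0.05 was reached by 238. The lower DEMs together took 59.4% of the miRNA counts at D30 and 12.5% at D120, while the higher DEMs went from 7.17% to 60.1%. The median log2 fold change was 1.44 over all tested miRNAs (0.39 by DESeq2 and 2.37 without D30 replicate 3), 4.17 among the higher and -3.03 among the lower DEMs. The RPM values of the stages did not overlap for 61.2% of the tested miRNAs, among them 136 of the higher DEMs, with 5 exceptions, and 47 of the 71 lower DEMs. Where D30 counts were few, a lack of overlap says little, since low counts alone can give it. In 161 of the 399 tested, every D30 library held 3 counts or fewer. Of the 38 miRNAs that were not tested, 20 had no count in any of the 6 libraries.

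The low miRNA counts at D30 limit how many of the higher calls can be sized. In 64 of the higher DEMs all D30 libraries held 3 counts or fewer, so their fitted fold changes depend on the prior count and are no bounds. Against the mean floor of the D30 libraries, 27 of these were at least 2-fold higher, and for 24 the floor lay above the D120 level, so that no fold could be given. With each such miRNA set at its bound, or at 0 where it had none, the median of all 399 tested was 0. Among the 178 tested miRNAs that averaged at least 100 RPM over the 6 libraries, 78 were higher (43.8%) and 53 lower (29.8%), with a median log2 fold change of 0.63. Without D30 replicate 3 there were 176 DEMs, 51 of them lower. A fit of only the 6 libraries compared tested 289 miRNAs and gave 180 DEMs, 48 of them lower.

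**Figure D1:**
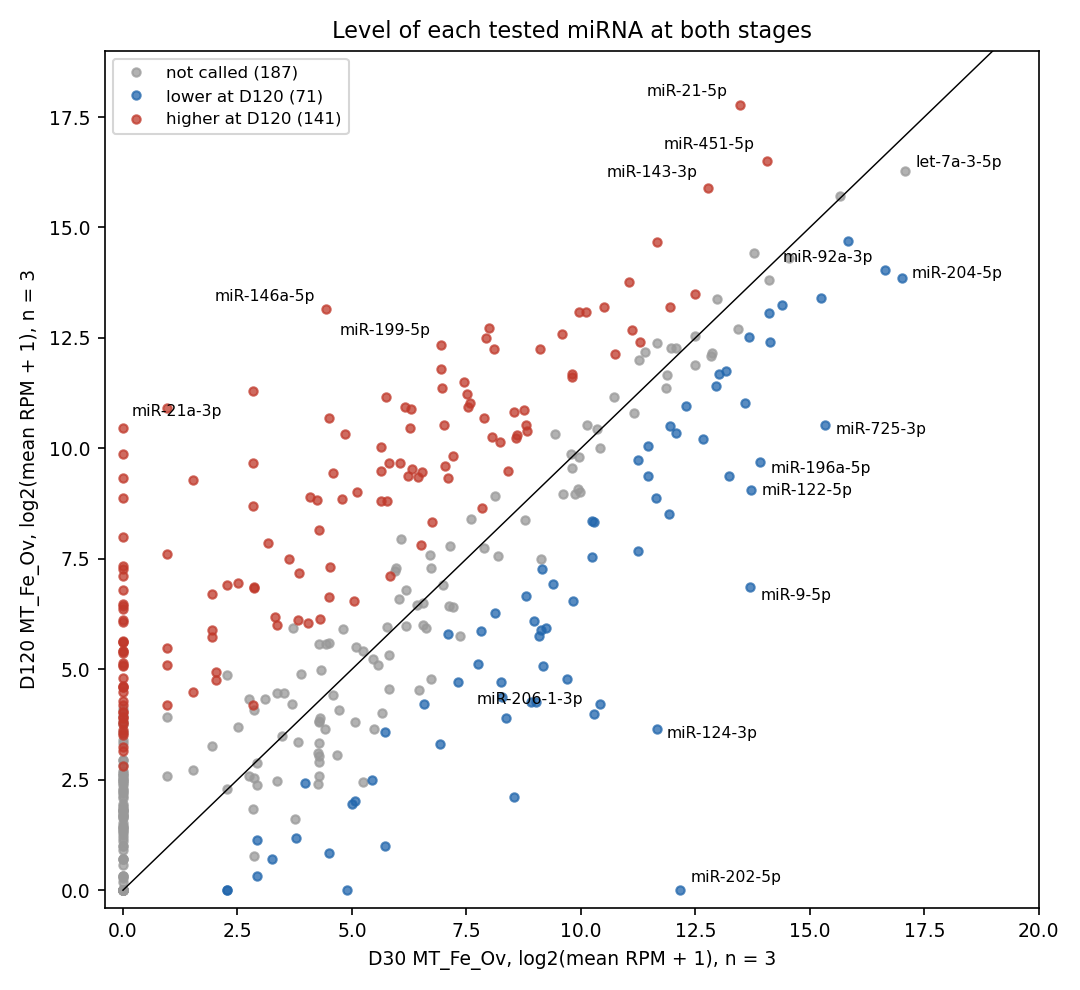
Mean level of the 399 tested miRNAs, as log2(mean RPM + 1) over 3 libraries, at D30 on the x axis and at D120 on the y axis, with the line of equal levels. Red points are the DEMs higher and blue points the 71 lower at D120, the 187 grey points were not called, and the column of points at 0 on the x axis is the miRNAs with no D30 count.

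The 10 most abundant miRNAs took 65.6% ± 2.76 (SD, n = 3) of the counts at D30 and 62.4% ± 0.923 at D120, a difference of -3.20 percentage points (exact two-sided permutation test, p = 0.2, where the smallest p that 3 against 3 allows is 0.1). Only 5 miRNAs were in both lists. At D30 let-7a-3-5p led with 13.8% ± 4.95 of counts, followed by miR-204-5p with 13.1% ± 3.38 and miR-92a-3p with 10.2% ± 3.14. At D120 miR-21-5p led with 22.5% ± 4.22, followed by miR-451-5p with 9.25% ± 3.95 and let-7a-3-5p with 7.94% ± 1.66.

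miR-21-5p, which in mammals is raised in injury, inflammation and proliferating tissue, stood at 12473, 13202 and 8628 RPM at D30 and at 272840, 192458 and 210230 RPM at D120. The groups were far apart, and it rose by 4.32 ± 0.27 (SE) on the log2 scale (edgeR, adjusted p = 1.80e-11). RefSeq places its hairpins on chromosome 13 (24842964-24843058) and chromosome 14 (21851054-21851140) of ASM223467v1, both outside other annotated genes. Its passenger arm miR-21a-3p had 0 counts in every D30 library and 1182, 1727 and 1312 RPM at D120, at least 46.1-fold higher. The other passenger arm, miR-21b-3p, went from 55.9, 147 and 56.9 to 746, 469 and 734.2 RPM, a log2 fold change of 3.08. All 3 miRNAs of the family were thus higher at D120, against 35.3% of all tested miRNAs. In the XX ovary miR-21-5p moved the other way, as described below. Whether the counting of reads plays a part in its listed levels was not tested.

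Of the gonad miRNA miR-202, the 5p arm was called and the 3p arm was not. miR-202-5p, the arm that dominates in fish gonads, stood at 4931, 3942 and 4972 RPM at D30 and was listed at 0 counts in all D120 libraries, at least 2626-fold lower. miR-202-3p of the same hairpin was at 979, 1210 and 814 RPM at D30 and at 634, 943 and 1105 RPM at D120, with a log2 fold change of -0.09 (edgeR, adjusted p = 0.945), and the groups overlapped. For the label check, miR-202-3p had counts in all 6 libraries and miR-202-5p in the D30 libraries. An exact 0 of an abundant miRNA beside a measured partner arm can also arise in the counting of reads, and this was not tested, so the bound holds for the deposited counts. At D120 miR-202-5p averaged 259882 RPM in the XX ovary and was listed at 0 in the testis, and miR-202-3p averaged 789.6 and 1350 RPM in these.

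**Figure D2:**
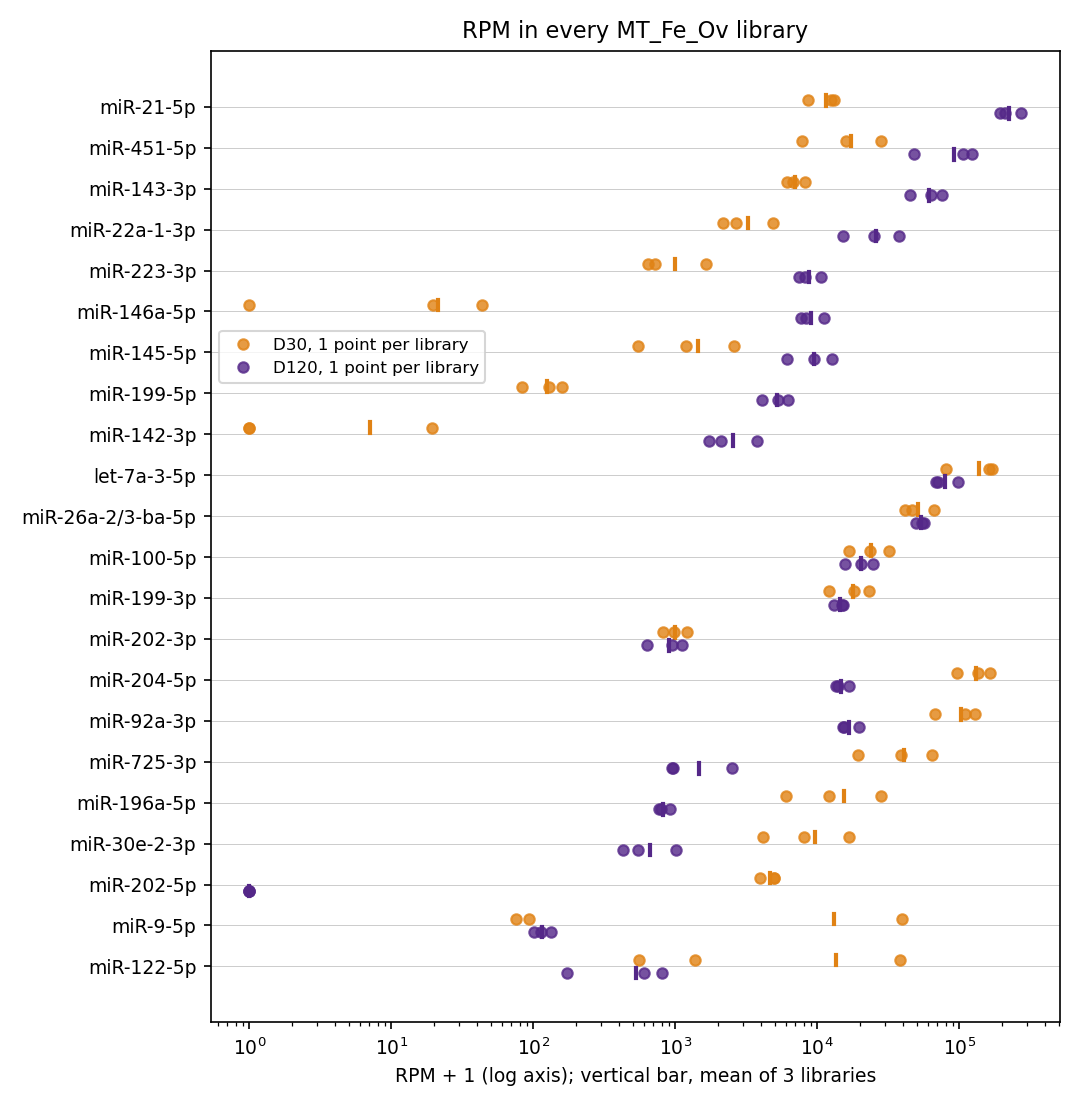
RPM + 1 on a log axis for 22 miRNAs in each of the 3 D30 (orange) and 3 D120 (purple) MT_Fe_Ov libraries, with a vertical bar at the mean. miR-21-5p, miR-143-3p and miR-146a-5p are apart at the stages, miR-26a-2/3-ba-5p and miR-100-5p overlap, and miR-9-5p and miR-122-5p are each high in a single D30 library.

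Leukocyte miRNAs were higher at D120. Of the 9 tested miRNAs of miR-142, miR-146, miR-150, miR-155 and miR-223, 6 rose and 0 fell, against 35.3% higher and 17.8% lower over all tested, with a median log2 fold change of 4.06 (3.28 with those at the D30 floor at their bound). Their summed level was 1808, 4181 and 1512 RPM at D30 and 22284, 23996 and 22512 RPM at D120. miR-146a-5p, which in mammals dampens innate immune signalling, had the largest fitted change of the members with over 3 counts in a library of each stage. Its D30 mean of 20.5 RPM lay under the mean floor of 30.5 RPM, so the size of its change rests on few D30 counts. It stood at 18.6, 0 and 42.7 RPM at D30 and at 7618, 11202 and 8327 RPM at D120, 8.17 ± 0.64 on the log2 scale (edgeR, adjusted p = 4.59e-10), and miR-146a-3p, its other arm, rose by 4.06. Its hairpin lies on chromosome 15 (23444118-23444223), outside other genes.

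miR-142-3p, found in blood cells of all lineages, had counts in 1 D30 library alone, at 18.3 RPM, and 3778, 2095 and 1734 RPM at D120, at least 83.1-fold higher. The other arm, miR-142-5p, was at least 13.7-fold higher. The myeloid miR-223-3p rose from 643, 1632 and 715 RPM to 7407, 8236 and 10573 RPM, by 3.28 ± 0.34 on the log2 scale. miR-150-5p and miR-155-5p, known from lymphocytes, did not pass the test. miR-150-5p went from 988, 1632 and 427 to 864, 439 and 240 RPM, with a log2 fold change of -0.91, and miR-155-5p from 18.6, 73.3 and 105 to 586, 54.5 and 101.3 RPM (1.58). Scaled by RLE or tested by DESeq2, miR-150-5p was called lower, with log2 fold changes of -1.23 by both, and the list then had 5 higher and 1 lower call.

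Of the red cell miRNAs, 3 of 3 tested rose, against 35.3% of all tested miRNAs. In 2 of them all D30 libraries held 3 counts or fewer. miR-451-5p stood at 15913, 27964 and 7779 RPM at D30 and at 47854, 122921 and 106712 RPM at D120, 2.61 ± 0.42 on the log2 scale. miR-144-3p, its partner in the red cell program, had 1 count in a single D30 library and 1033, 3284 and 1492 RPM at D120, at least 63.5-fold higher. D120 replicate 1 was the lowest of the D120 libraries in both. Of the endothelial miR-126, both tested arms rose, where 35.3% of all tested miRNAs did. miR-126b-3p rose by 1.21, from 1939, 3631 and 1950 to 5602, 4743 and 6009 RPM, and miR-126b-5p by 4.26. The call of miR-126b-3p was lost under RLE scaling (0.87) and DESeq2 (0.89).

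Stromal miRNAs were higher as well. Of 9 tested miRNAs of miR-143, miR-145, miR-199 and miR-214, 7 rose and 0 fell (35.3% and 17.8% of all tested), also without D30 replicate 3, with a median of 3.08 (2.16 at the bound) and a sum of 35462, 32566 and 28819 RPM at D30 against 94607, 113440 and 82230 RPM at D120. Most of the D120 sum was miR-143-3p. In 3 of the 9 every D30 library held 3 counts or fewer. Of the 6 that averaged at least 100 RPM, 4 rose and 0 fell (43.8% and 29.8% of all such miRNAs). miR-143-3p stood at 6134, 8197 and 6686 RPM at D30 and at 63072, 74950 and 44889 RPM at D120, 3.12 ± 0.29 on the log2 scale. Its neighbour miR-145-5p rose by 2.95, from 1193, 2586 and 547 to 6096, 9430 and 12758 RPM, and miR-145-3p, with no D30 count, was at least 4.47-fold higher. Both hairpins lie on chromosome 10, 113 bases apart (4587604-4587712 and 4587826-4587885).

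The arms of miR-199, a miRNA of mesenchyme, moved apart. miR-199-5p went from 158, 128 and 82.6 to 5302, 6182 and 4062 RPM, 5.41 ± 0.39 on the log2 scale (edgeR, adjusted p = 1.99e-10). miR-199-3p had 23119, 12047 and 18121 RPM at D30 and 13013, 14822 and 15221 RPM at D120, with a log2 fold change of -0.36 that did not pass the test. miR-214-3p, transcribed with miR-199 in vertebrates, was at 4661, 9462 and 3289 RPM and then at 6223, 7147 and 4437 RPM, 0.15 ± 0.70, and its groups overlapped.

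Epithelial and muscle lists were mixed. miR-203b-3p and miR-205-5p, miRNAs of skin and stratified epithelium, rose by 4.63 and 4.57, from 46.6, 110 and 74.0 to 1939, 1793 and 1919 RPM and from 28.0, 0 and 19.9 to 297, 439 and 695 RPM. Of the miR-200 family, which keeps epithelial cells epithelial, miR-200a-3p rose by 4.11 and miR-200b-3p by 1.86, while miR-429a-3p fell by 2.57, from 17181, 10727 and 8904 to 2157, 2076 and 2020 RPM. In the muscle list 5 of 10 tested rose and 1 fell (3 and 1 without D30 replicate 3), where all tested miRNAs had 35.3% and 17.8%. miR-1-3p went from 158, 147 and 59.8 to 3068, 3158 and 4373 RPM (4.996 ± 0.45 on the log2 scale) and miR-133a-3p from 224, 220 and 111 to 1983, 1996 and 1873 RPM (3.47 ± 0.34). The skeletal muscle miR-206-1-3p fell by 6.30, from 2181, 1284 and 268 to 11.4, 17.4 and 15.5 RPM.

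**Figure D3:**
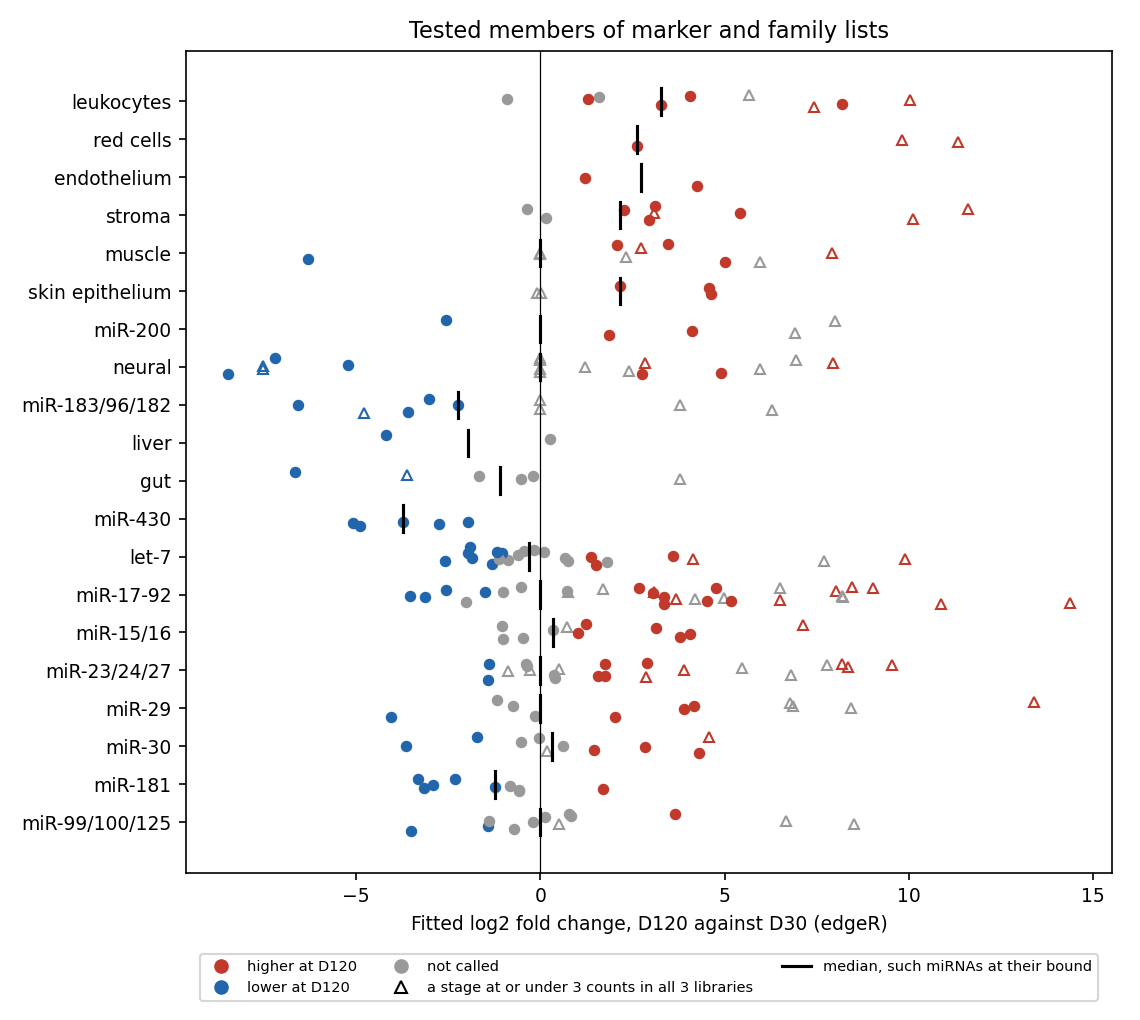
Fitted log2 fold change of each tested miRNA in 20 marker and family lists, D120 against D30, red for higher, blue for lower and grey for not called. Open triangles mark miRNAs with 3 counts or fewer in every library of a stage, whose size is not bounded, and black bars the list median with these at their bound. The stroma list has 7 red points and the miR-430 list 5 blue ones.

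Among the lower DEMs the largest losses of reads were in miR-204-5p and miR-92a-3p. miR-204-5p, which in vertebrates is high in retinal epithelium and choroid plexus, stood at 134528, 163620 and 96200 RPM at D30 and at 14083, 16634 and 13522 RPM at D120, -3.11 ± 0.31 on the log2 scale. Its hairpin on chromosome 9 (16562225-16562320) lies inside the gene LOC100533512. miR-725-3p, a fish miRNA, fell by 4.70 ± 0.51, from 64761, 39094 and 19385 to 960, 941 and 2507 RPM, and miR-725-5p by 3.61. miR-196a-5p, encoded in the Hox clusters, fell by 4.21, from 28032, 12139 and 5980 to 766, 915 and 789 RPM. miR-1388-3p fell by 2.75 and miR-8160a-5p by 4.09, the latter from 456.8, 825 and 453 to 41.7, 25.1 and 31.1 RPM. The groups did not overlap in any of these, which was a condition for naming miR-725-3p, miR-196a-5p and miR-8160a-5p.

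The miR-430 family, known in zebrafish for clearing maternal mRNA in the embryo, fell as a whole among the members that could be tested. All 5 tested of 11 in the table were lower at D120, against 17.8% of all tested miRNAs. Their summed level, with all 11 counted, was 2461, 1705 and 3995 RPM at D30 and 299, 400 and 508 RPM at D120. miR-430c-3p was the most abundant, with 1072, 843 and 1728 RPM at D30, 240, 335 and 413 RPM at D120 and a log2 fold change of -1.96. miR-430b-1-3p fell by 5.09, from 662, 532 and 1301 to 18.3, 25.9 and 34.7 RPM, miR-430a-1-3p by 4.89 and miR-430a-4-3p by 2.75. miR-430d-2-3p, at 55.9, 0 and 37.0 RPM at D30, overlapped with D120 and was no longer called without D30 replicate 3. The matched hairpins lie close together on chromosome 4, from miR-430c-3 at 1912895 to miR-430a-1 at 1919250, and a further one, miR-430d-2, at 1974708-1974794. Near-identical members can share reads.

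The let-7 family, which promotes differentiation in animals, split largely by arm. Of 22 tested, 5 rose and 7 fell (35.3% and 17.8% of all tested), with a median of -0.31. Without D30 replicate 3, 8 rose and 3 fell. The higher calls were all 3p arms, and the lower calls were all 5p arms except let-7a-5-3p. Every higher 3p arm had a D30 mean under the mean floor of 30.5 RPM. The higher side of this split thus rests on few D30 counts. Among the 12 tested that averaged at least 100 RPM, 1 rose and 7 fell (43.8% and 29.8% of all such miRNAs). The summed level of the family was 293267, 177501 and 356678 RPM at D30 and 135985, 137317 and 173673 RPM at D120. let-7a-3-5p was at 162942, 80499 and 169288 RPM and then at 68642, 71073 and 98618 RPM, -0.87 ± 0.40 (edgeR, adjusted p = 0.0681), and was called lower by DESeq2 and under RLE scaling (-1.12 by both). let-7g-5p fell by 1.97, let-7j-5p by 1.86 and let-7e-5p by 1.31, of which let-7g-5p and let-7e-5p lost the call without D30 replicate 3 (-1.07 and -0.42). The call of let-7e-5p was also lost in fits of only the 6 libraries compared (-1.31) or the 9 MT_Fe_Ov libraries (-1.48). let-7b-5p, at 11988, 21472 and 9006 and then 21643, 23584 and 20554 RPM, did not pass the test (0.74).

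The miRNAs of the miR-17-92 cluster and its paralogues moved in both directions. Of 30 tested, 15 rose and 4 fell (35.3% and 17.8% of all tested), with a median of 3.51 (0 with those at the floor at their bound). miR-92a-3p fell by 2.57 ± 0.25, from 109974, 129531 and 67988 to 19502, 15519 and 15200 RPM, and miR-92b-3p by 3.54. miR-19b-3p rose by 4.53, from 289, 73.3 and 396 to 6177, 6079 and 8030 RPM, miR-20a-5p by 3.36, from 438, 36.7 and 99.7 to 2100, 2008 and 2168 RPM, and miR-17a-5p by 3.35. miR-19a-2-3p had no D30 count and was at least 30.6-fold higher at D120. The hairpins of miR-92a-1 (23593669-23593772), miR-19b-1 (23593777-23593878) and miR-20a-2 (23593901-23594002) follow each other on chromosome 21. The same mature miRNAs also match mir-92a-2 and mir-20a-1 on chromosome 3 and mir-19b-2 on chromosome 10, so their counts cannot be assigned to 1 cluster. In every library of D30 miR-92a-3p exceeded miR-19b-3p, as it still did at D120 by a smaller ratio. The summed level of the families was 122997, 143302 and 76943 RPM at D30 and 36483, 32404 and 35165 RPM at D120.

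In other families the members also differed, and their counts are to be read against the 35.3% higher and 17.8% lower of all tested miRNAs. The counts of miR-29 and of miR-23, miR-24 and miR-27 lie near those shares. Of 11 tested of miR-29, which in mammals lowers collagen mRNAs, 4 rose and 1 fell. miR-29a-3p rose by 4.17, from 131, 55.0 and 188 to 2359, 2740 and 2757 RPM, and miR-29b-1a-3p by 2.04. Another copy, miR-29b-2b-3p, had no D30 count and was at least 15.3-fold higher. In contrast miR-29b-2a-5p fell by 4.05, from 438, 220 and 273 to 20.8, 17.4 and 20.7 RPM. Of 11 tested of miR-15 and miR-16, which restrain the cell cycle, 6 rose and 0 fell (3 by DESeq2 or with RLE scaling), miR-15a-2-5p by 3.14 and miR-16c-5p by 1.03. The call of miR-16c-5p was lost under both (0.70 each), by library totals (0.99), and without D30 replicate 2 (0.89) or D120 replicate 3 (0.77). Of 21 tested of miR-23, miR-24 and miR-27, 9 rose and 2 fell (6 and 2 without D30 replicate 3). miR-27c-3p rose by 2.90, and its neighbour miR-23a-3p, at 8092, 7518 and 8485 and then 10289, 11068 and 10666 RPM, did not pass the test (0.38). Of 9 tested of miR-181, 1 rose and 5 fell (1 and 3 without D30 replicate 3), among them miR-181a-5p by 1.22 and its 3p arm miR-181a-1-3p by 3.33. The call of miR-181a-5p was lost without D30 replicate 3 (-0.42). It was also lost in fits of only the 6 libraries compared (-1.25) or the 9 MT_Fe_Ov libraries (-1.40). miR-181a-1-3p went from 2638, 6638 and 2420 to 482, 364 and 241 RPM.

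Arms of miR-30e went in opposite directions, under names with different copy numbers. The 3p arm miR-30e-2-3p fell by 3.64 ± 0.40, from 8017, 16650 and 4154 to 544, 425 and 1011 RPM, and miR-30e-1-3p by 1.73. miR-30e-5p rose by 4.29 ± 0.63, from 18.6, 18.3 and 174 to 2193, 1808 and 1830 RPM. The hairpin of miR-30e on chromosome 11 (22285591-22285696) lies inside nfyc. Of the 113 hairpins with both arms tested under 1 name, both arms were higher in 25 and lower in 4, the arms were called in opposite directions in 6, and 1 arm was called in 53. The 6 were let-7j, miR-130b, miR-181c, miR-193a-2, miR-454b and miR-1388, and in each 1 arm averaged less than the mean floor at 1 of the stages.

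Several further families had counts near the 35.3% higher and 17.8% lower of all tested miRNAs, among them miR-30, the miR-130 and miR-301 family and the fish miRNAs. The 4 tested of miR-101 all rose (3 without D30 replicate 1 or 3). All averaged under 100 RPM, and 2 of them had 3 counts or fewer in every D30 library. miR-101a-3p went from 0, 0 and 34.2 to 156, 215.4 and 168 RPM (3.07), with a D30 mean of 11.4 RPM that lay under the mean floor. Of 8 tested of miR-26, 2 rose and 0 fell (1 rose without any 1 of the D30 libraries, and 1 fell without replicate 2), and miR-26a-1b-5p went from 1417, 807 and 4174 to 12964, 13218 and 15768 RPM (2.52 ± 0.79). Its call was lost in a fit of the 9 MT_Fe_Ov libraries (2.32). Of 10 tested of miR-30, 4 rose and 2 fell, miR-30a-5p by 1.44. In the miR-130 and miR-301 family 5 of 12 tested rose and 2 fell, and 2 rose without D30 replicate 1 or 2. Its most abundant member, miR-301a-3p, went from 37.3, 55.0 and 54.1 to 989, 967 and 1175 RPM (4.34 ± 0.81). Of 33 tested miRNAs with numbers known mainly from fish, 12 rose and 3 fell (7 and 3 without D30 replicate 3). The arms of miR-210, which is induced by low oxygen in mammals, moved apart, since miR-210-3p rose from 28.0, 55.0 and 62.6 to 498.7, 422 and 430 RPM (3.06) and miR-210-5p, at 4419, 4529 and 2284 and then 3699, 2470 and 3540 RPM, did not pass the test (-0.15). miR-375a-3p, a miRNA of endocrine cells, fell by 2.05, from 3645, 3374 and 1506 to 850, 524 and 627 RPM.

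A few further miRNAs rose, some of them from a low level. miR-31a-5p went from 224, 422 and 85.4 to 4953, 973 and 11306 RPM, 4.87 ± 0.67 on the log2 scale, and miR-31a-3p was at least 26.8-fold higher. D120 replicate 2 was the lowest of the D120 libraries in both arms. miR-33-5p sits in introns of srebf genes, regulators of lipid synthesis, in vertebrates, and its hairpin lies inside srebf1 here (chromosome 8, 12411119-12411212). It rose by 5.72, from 28.0, 0 and 37.0 to 1591, 2217 and 1127 RPM, with a D30 mean of 21.7 RPM that lay under the mean floor. miR-22a-1-3p rose by 3.09, from 2657, 4859 and 2156 to 25274, 37701 and 15257 RPM, and miR-221-3p by 2.50. miR-338-3p was at least 20.4-fold and the fish miRNA miR-2184-5p at least 21.01-fold higher, and miR-2188-5p rose by 3.14, from 587, 1944 and 772 to 4822, 13060 and 8016 RPM. miR-34a-5p, a target of p53 in mammals, fell by 1.48, from 2489, 2787 and 1993 to 1031, 684 and 858 RPM.

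Of the remaining miRNAs for which the study designed primers, miR-10b-5p, whose hairpin lies within hoxd3 (chromosome 21, 22545237-22545344), rose by 1.80, from 438, 532 and 188 to 1622, 1231 and 960 RPM. miR-7-5p fell by 1.44, from 6926, 4786 and 13243 to 3102, 2653 and 4177 RPM, and lost the call without D30 replicate 3 (-0.67). miR-99a-5p was at 3039, 4254 and 5712 and then at 6372, 4489 and 4046 RPM (0.11 ± 0.29), with overlap. Among the most abundant miRNAs, miR-26a-2/3-ba-5p was at 46182, 41460 and 66584 and then at 54367, 49526 and 56525 RPM (-0.01 ± 1.23) and miR-100-5p at 23576, 31759 and 16737 and then at 24690, 20290 and 15751 RPM (-0.21 ± 0.22). Both overlapped between the stages.

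Part of the lower calls came from single D30 libraries. The neural list (miR-9, miR-124, miR-153, miR-219) summed to 93.2, 385 and 50827 RPM at D30 and to 1683, 1636 and 1819 RPM at D120. miR-9-5p was at 74.6, 91.7 and 39437 RPM at D30 and at 112, 132 and 99.8 RPM at D120, and miR-124-3p at 18.6, 0 and 9656 RPM and then at 10.1, 14.7 and 9.61 RPM. They were called lower, at -7.19 and -8.47, and without D30 replicate 3 their log2 fold changes were 0.65 and 0.06. The neural list had 4 higher and 5 lower calls with that library (2 and 5 by DESeq2) and 3 and 0 without it. The higher ones include miR-153a-3p, from 0, 110 and 162 to 828, 634 and 671 RPM (2.76), and miR-153c-3p, from 0, 165 and 0 to 667, 791 and 991 RPM (4.91). In the sensory list of miR-183, miR-96 and miR-182, 5 of 9 tested were called lower, against 17.8% of all tested. Without D30 replicate 3 this list had 1 lower and 2 higher calls. In the sensory list miR-182a-5p (-6.59) was at 112, 73.3 and 3935 RPM at D30. miR-183-5p (-3.59, and 0.98 and not called without that library) was at 74.6, 18.3 and 2631 RPM. miR-96-5p (-3.03) was at 0, 0 and 3613 RPM. Without that library miR-96-5p was called higher, at 12.14, a size that depends on the prior count. Its lower call was also lost in other settings. In all, 13 lower DEMs were over 10 times higher in D30 replicate 3 than in both other D30 libraries. Without that library 24 of the 71 lower calls were lost, and so were 30 of the higher calls. It held the most miRNA counts of the D30 libraries (351194), so a lost call alone does not show that the signal came from it. The part of neural or sensory tissue in the lower calls was not tested.

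D30 replicate 2 held the liver miRNA miR-122-5p at 38416 RPM, against 1380 and 552 RPM in the other D30 libraries and 172, 809 and 605 RPM at D120. Its log2 fold change was -4.18 with that library and -0.96, not called, without it. miR-193a-2-5p, at 46.6, 1724 and 37.0 RPM at D30 and 70.1, 46.0 and 65.1 RPM at D120, was called at -2.83 and stood at 0.34 without it. D30 replicate 1 was the highest in miR-206-1-3p and in the gut miR-192-3p. miR-192-3p was at 802, 275 and 31.3 RPM at D30 and at 1.26, 5.03 and 3.70 RPM at D120 (-6.66). Without D30 replicate 1, 3 lower and 17 higher calls were lost, and without D30 replicate 2, 3 lower and 13 higher. The leukocyte, red cell and stroma lists were higher at D120 in every library.

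**Figure D4:**
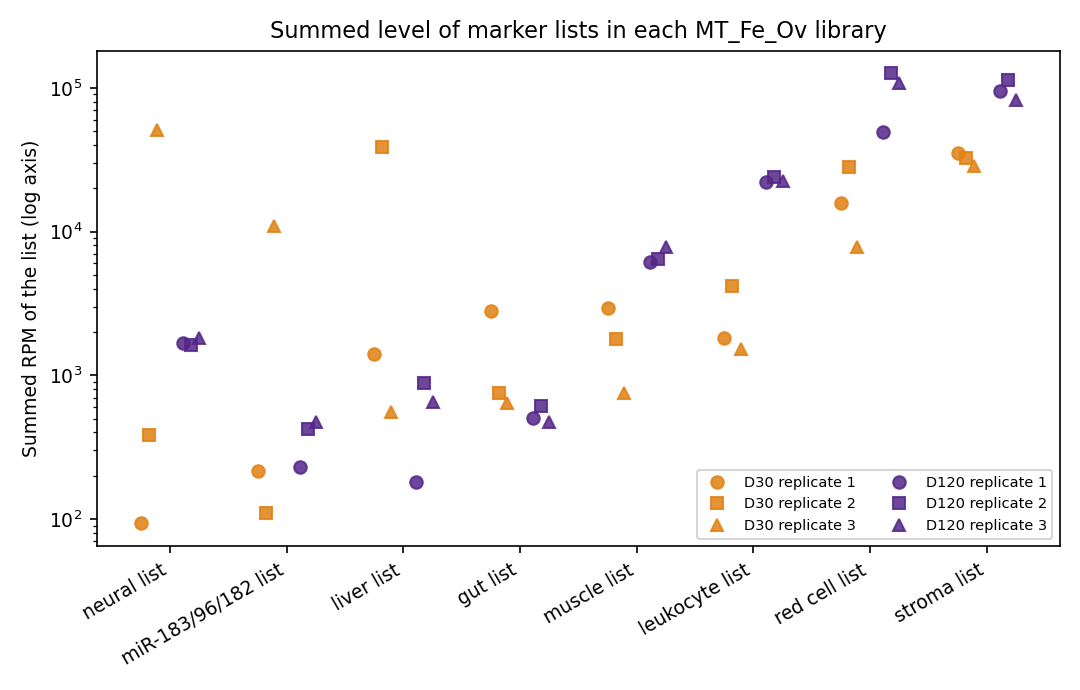
Summed RPM of 8 marker lists, on a log axis, in each of the 6 MT_Fe_Ov libraries, with orange for D30, purple for D120 and the marker shape for the replicate. D30 replicate 3 has 50827 RPM of neural miRNAs and D30 replicate 2 has 38544 RPM of the liver list, while the leukocyte, red cell and stroma lists are higher in all D120 libraries.

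Whether the XY ovary changed as the XX ovary did was tested in the same edgeR fit, as the difference between both changes. These sets share no library. The difference was called for 86 of 399 miRNAs (21.6%), 30 more positive (7.52%) and 56 more negative (14.0%) in the XY ovary, and 28 and 36 without D30 replicate 3 of the XY ovary. Of the 212 DEMs between the stages, the difference was called for 62 and not for 150. The XX ovary had 261 DEMs of its own (65.4%), 187 higher (46.9%) and 74 lower (18.5%). A difference that misses the threshold does not show that the ovaries changed alike.

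Of the miR-21 family, the difference was called for miR-21-5p and for neither passenger arm. Whether the counting of reads plays a part in that was not tested. miR-21-5p moved in opposite directions in both ovaries. In the XX ovary it went from 14307 ± 2402 (SD, n = 3) to 1327 ± 575 RPM, against means of 11434 and 225176 RPM in the XY ovary, a difference of 7.69 ± 0.38 on the log2 scale (edgeR, adjusted p = 7.98e-14). miR-202-5p went the other way, from 10118 ± 2095 to 259882 ± 16182 RPM in the XX ovary and to a listed 0 in the XY ovary, with the same limit on that 0 as above. miR-31a-5p went from 12769 ± 4092 to 4166 ± 892 RPM in the XX ovary. In the XY ovary its means were 244 and 5744 RPM, so the ovaries stood far closer at D120 than at D30. The difference between the changes was 6.40 ± 0.87, and that of miR-31a-3p was 8.64. miR-205-5p (5.32), miR-203b-3p (3.44), miR-146a-5p (3.25), miR-143-3p (1.91) and miR-10b-5p (1.88) were also more positive in the XY ovary. miR-725-3p (-3.29), miR-33-5p (-5.20) and miR-430c-3p (-3.75) were more negative, and so was each of the 5 tested miR-430 members. The call of miR-33-5p was lost without D30 replicate 3 (-4.31). miR-223-3p (-2.12), miR-145-5p (-1.96) and miR-451-5p (-1.60) were more negative too, with XX ovary means of 267, 274 and 5701 RPM at D30 and 10225, 7403 and 99216 RPM at D120. The calls of miR-145-5p and miR-451-5p were lost when most single libraries were left out, with values down to -1.53 for miR-145-5p and -1.23 for miR-451-5p.

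As for miR-31a-5p, the listed levels of the ovaries stood apart at D30 and close together at D120 for other miRNAs too. The paper counts far fewer DEMs between the ovaries at D120 than at D30. miR-204-5p was listed at 0 in all D30 libraries of the XX ovary and averaged 131450 RPM in the XY ovary, while at D120 the ovaries averaged 12271 and 14746 RPM. Whether this 0 arose in the counting of reads was not tested. The fitted difference of miR-204-5p, -21.28, is no bound, and the same holds for miR-148a-3p (-10.75). miR-135b-3p had 693 ± 65.0 RPM in the D30 XX ovary and counts in 1 D30 XY library alone (9.13). The neural miR-9-5p (-7.67), miR-9-1-3p (-13.88) and miR-124-3p (-17.92) were called with D30 replicate 3, and without it they stood at 0.16, 0.05 and -9.44 and were not called.

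**Figure D5:**
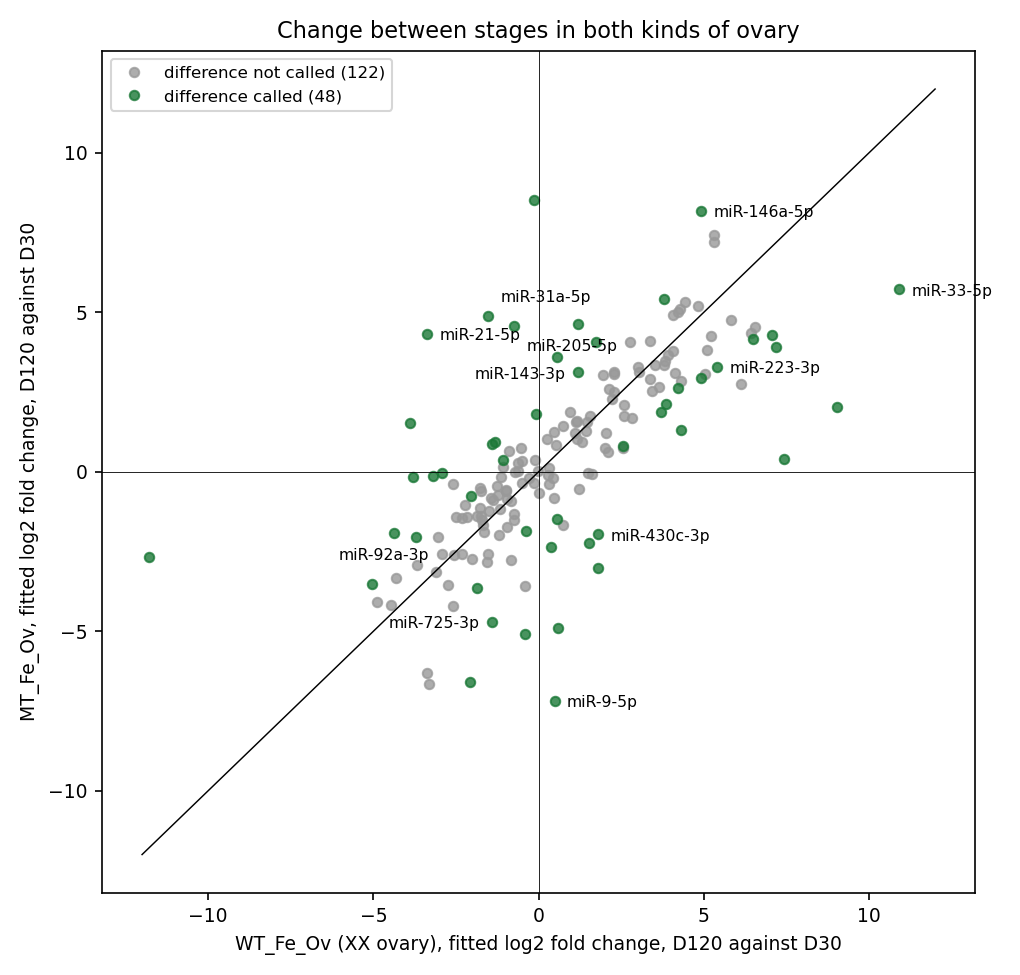
Fitted log2 fold change between D30 and D120 in the XX ovary (x axis) and the XY ovary (y axis) for the 170 tested miRNAs that averaged at least 100 RPM over the 4 group means and had counts in all 4 groups, with the line of equal change. Green points are the 48 whose difference between the ovaries was called. miR-21-5p lies left of 0 and above it, lower in the XX ovary at D120 and higher in the XY ovary.

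Against the testis the difference was called for 139 miRNAs (34.8%), 86 more positive (21.6%) and 53 more negative (13.3%) in the XY ovary, and by DESeq2 for 72 and 71. The testis had 174 DEMs of its own (43.6%), 123 higher (30.8%) and 51 lower (12.8%). miR-146a-5p rose more in the XY ovary, by 6.72 ± 0.73 on the log2 scale, since it went from 600 ± 78.3 to 1705 ± 597 RPM in the testis. miR-31a-5p (5.53), miR-1-3p (4.92), miR-199-5p (3.58), miR-223-3p (3.34), miR-143-3p (2.74) and miR-21-5p (2.17) were also more positive. miR-499a-5p (6.51), a muscle miRNA, rose from 267 to 1228 RPM in the XY ovary and stood at 4244 ± 362 RPM in the D30 testis, where its own log2 fold change was -4.42. miR-7-5p went from 10515 ± 1680 to 65418 ± 7316 RPM in the testis and fell in the XY ovary, a difference of -4.04 ± 0.56. miR-196a-5p (-3.16), miR-204-5p (-2.30) and miR-92a-3p (-1.76) were more negative in the XY ovary. miR-21a-3p (14.03), miR-19a-2-3p (11.91), miR-193a-2-3p (10.34) and miR-29b-2b-3p (9.40) had no count in the D30 XY ovary and counts in the D30 testis, so their sizes are no bounds. miR-192-3p (-9.61) and miR-124-3p (-11.93) were more negative, of which miR-124-3p was not called without D30 replicate 3 (-3.40). Neither difference was called for 72 of the 212 DEMs between the stages.

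At D10, when the gonad was dissected with neighbouring tissue, MT_Fe_Ov libraries held miR-21-5p at 38414 ± 3123 RPM, miR-143-3p at 17426 ± 1219 RPM, miR-204-5p at 28676 ± 6648 RPM and miR-202-5p at 366 ± 45.0 RPM. They also held miR-9-5p at 26461 ± 8319 RPM and miR-122-5p at 8943 ± 909 RPM, the miRNAs that were high in single D30 libraries.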

How the data were processed

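The authors size-selected small RNA, sequenced it on a HiSeq 2000, kept reads longer than 17 nt, mapped them to ASM223467v1 with miRDeep2 and counted reads on FishmiRNA matures. The deposited counts are whole reads per miRNA. The deposited RPM values are counts scaled by the authors to 1000000 miRNA reads of a library, so RPM is relative to miRNA reads alone. How reads matching several miRNAs were treated is not given in the sources used here.

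All 27 libraries were fitted in 9 groups with edgeR 4.0.16 (TMM scaling, quasi-likelihood F test, Benjamini-Hochberg adjustment), keeping miRNAs that reached 10 counts in 3 or more libraries. DEMs passed an adjusted p of 0.05 and moved by 1 or more on the log2 scale. The code was tested on simulated counts. The SE is the absolute log2 fold change divided by the square root of the F value. It is unstable for changes near 0, such as those of miR-26a-2/3-ba-5p and miR-214-3p. Bounds divide a mean by the mean floor of 3 counts. Hairpin positions were matched by name to RefSeq for 136 miRNAs, without strand, so strand was not used. Named miRNAs were the 10 most abundant of each stage, up to 12 DEMs per direction with the largest fold change among those of at least 100 RPM whose stages did not overlap, abundant members of each list, arms of these, DEMs of the differences and miRNAs the study names. Members and lists were chosen with earlier results of these data known. Alternatives were DESeq2 1.42.0, other scalings, filters, thresholds and subsets of libraries, a replicate block, and each replicate left out. Other steps used Python 3.11.15.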

Additional observations from a re-analysis of the deposited data

Results flagged for a closer look

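Every miRNA here is listed because its change from D30 to D120 in MT_Fe_Ov differed from that in another gonad by the test of the difference in edgeR, given on the log2 scale as the change in MT_Fe_Ov minus the other. Against the XX ovary, where 86 miRNAs differed, the change was more positive for miR-135b-3p (9.13), miR-31a-3p (8.64), miR-21-5p (7.69), miR-31a-5p (6.40), miR-205-5p (5.32), miR-203b-3p (3.44), miR-146a-5p (3.25), miR-143-3p (1.91) and miR-10b-5p (1.88). It was more negative for miR-202-5p (-21.57), miR-204-5p (-21.28), miR-124-3p (-17.92), miR-9-1-3p (-13.88), miR-148a-3p (-10.75), miR-9-5p (-7.67), miR-33-5p (-5.20), miR-430c-3p (-3.75), miR-725-3p (-3.29), miR-223-3p (-2.12), miR-145-5p (-1.96) and miR-451-5p (-1.60). Of these, miR-202-5p, miR-204-5p, miR-124-3p, miR-9-1-3p and miR-148a-3p had no count in 1 of the 4 groups, so their sizes depend on the prior count.

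Against the testis, where 139 differed, the change was more positive for miR-21a-3p (14.03), miR-19a-2-3p (11.91), miR-193a-2-3p (10.34), miR-29b-2b-3p (9.40), miR-146a-5p (6.72), miR-499a-5p (6.51), miR-31a-5p (5.53), miR-1-3p (4.92), miR-199-5p (3.58), miR-223-3p (3.34), miR-143-3p (2.74) and miR-21-5p (2.17). It was more negative for miR-124-3p (-11.93), miR-192-3p (-9.61), miR-7-5p (-4.04), miR-196a-5p (-3.16), miR-204-5p (-2.30) and miR-92a-3p (-1.76). The first 4 of the positive ones had no count in the D30 XY ovary.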

How the results depend on the processing

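RLE scaling shifted the log2 fold changes by a median of -0.19 and DESeq2 by -0.31 against the reported fit. The 212 DEMs were 210 by DESeq2 and 129 with a minimum of 100 RPM, where fewer miRNAs were tested. The share held by the 10 most abundant miRNAs differed by -3.20 percentage points, that of the 5 most abundant by 1.88. Leaving out 1 replicate gave 176 to 213 DEMs, 64 to 96 differences from the XX ovary, at least 116 from the testis, and -4.64 to -1.89 percentage points. Replicate numbers did not pair the MT_Fe_Ov libraries (correlations of deviations 0.0467, -0.0584 and -0.0021). The values for libraries of the same number were 0.0429, 0.0292 and 0.0123 in the XX ovary and 0.0916, 0.1001 and 0.0664 in the testis. In the testis all values for different numbers were negative. With a replicate block there were 81 differences from the XX ovary and 131 from the testis.

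Of the fold changes and differences of named miRNAs, 18 lost a call in at least 1 setting. Some log2 fold changes changed sign, and the cause was not tested. miR-214-3p was -0.19 by DESeq2 and -0.19 under RLE scaling, and miR-99a-5p -0.11 and -0.10. miR-26a-2/3-ba-5p was 0.057 by library totals and 0.070 with a minimum of 100 RPM. With 1 replicate left out, log2 fold changes ran for miR-202-3p from -0.40 to 0.19, miR-26a-2/3-ba-5p from -0.30 to 0.45, miR-214-3p from -0.0087 to 0.37, miR-9-5p from -7.77 to 0.65, miR-124-3p from -9.05 to 0.057, miR-183-5p from -4.15 to 0.98, miR-96-5p from -3.61 to 12.14, miR-99a-5p from -0.10 to 0.64, miR-193a-2-5p from -3.40 to 0.34 and miR-210-5p from -0.35 to 0.078. Differences from the XX ovary ran for miR-9-5p from -8.25 to 0.16 and for miR-9-1-3p from -14.50 to 0.051.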
